A study of Mus musculus with 16 samples.

Results

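The machinery that makes and uses small interfering RNAs was examined through 10 genes, *Drosha*, *Dgcr8*, *Xpo5*, *Dicer1*, *Tarbp2*, *Prkra*, *Ago1*, *Ago2*, *Ago3* and *Ago4*, out of 24984 genes counted in each library. The members were chosen by name, as small RNA processing factors and Argonaute proteins, and all 10 passed the filter on low counts in the edgeR fits. The libraries came from whole kidney and whole liver of female wild-type C57BL/6 mice aged 24 months at injection. Every mouse had received an AAV8 vector, a liver-tropic adeno-associated virus, into the bloodstream. The mice had been randomised to a vector, and the tissues were collected some months after the injection. The vector carried a short hairpin RNA against *Fos* in the shFos group and a non-targeting one in the control (NT) group, so both groups carried a vector. Each tissue and vector had 4 libraries, 16 in all. The cells that took up the vector, the promoter of the hairpin and whether a kidney and a liver came from 1 mouse are not given in the sources used here.

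A microRNA starts as a long primary transcript that the Microprocessor, the nuclease Drosha with its RNA-binding partner Dgcr8, cuts to a hairpin. Exportin-5 (*Xpo5*) carries the hairpin to the cytoplasm, where Dicer, helped by the double-stranded RNA-binding proteins TRBP (*Tarbp2*) and PACT (*Prkra*), trims it to a duplex. An Argonaute protein keeps 1 strand as its guide, and only Ago2 among the Argonautes is widely known as a strong slicer of matched targets. A vector-borne short hairpin enters this path at exportin-5 and bypasses the Microprocessor, and small RNAs themselves are not seen in messenger RNA libraries like these.

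Depth was 14194543 to 15534665 reads on genes in the kidney libraries and 16652150 to 18300277 in the liver libraries. Levels are given as CPM, read counts brought to a common library total, with TMM factors over all 16 libraries, a method that equalises the bulk of genes between libraries. Because a few liver genes take a large share of the reads, this scaling matters between tissues: without it the median of all genes tested was 1.10 higher on the log2 scale in NT kidney than in NT liver, and with it 0.05. Defining markers matched the tissue labels, with hepatocyte markers summing to between 60123 and 263288 CPM in liver and between 122 and 715 CPM in kidney, and proximal tubule markers to between 3415 and 24490 CPM in kidney and at most 6.80 CPM in liver. Kidney NT replicate 4 stood apart in these markers, with *Slc5a2* at 20.6 CPM against 91.4 to 108 CPM in the other NT kidneys and *Serpina1a* at 230 CPM against 7.98 to 11.3 CPM. Liver NT replicate 4 stood apart as well, with *Alb* at 38721 CPM against 146404 to 237954 CPM in the other NT livers and the neutrophil gene *S100a8* at 52.1 CPM against 4.90 to 11.5 CPM. *Fos*, the target of the hairpin, was read at 4.73, 3.66, 2.99 and 3.83 CPM in the NT kidneys and at 1.85, 2.95, 2.72 and 1.61 CPM in the shFos kidneys. The kidney groups did not overlap, with a log2 fold change of -0.73 (SE 0.25, edgeR adjusted p = 0.0955). The DESeq2 adjusted p was 0.0425, in a fit that called 19.7% of all genes. In the liver *Fos* lay at 1.57, 3.34, 5.196 and 4.05 CPM under NT and at 2.31, 2.13, 3.87 and 1.97 CPM under shFos. These groups overlapped (log2 fold change -0.47, SE 0.38, edgeR adjusted p = 0.778, DESeq2 adjusted p = 0.830).

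The promoters of the members shared a sequence make-up. In RefSeq (GRCm38.p6), 9 of the 10 genes had an entry, *Ago1* with 2 starts, giving 10 windows of 250 bases before the start. *Ago2* had no entry, so its promoter was not read. Their median GC content was 73.0% against 52.4% over 32851 promoter windows, and the ratio of observed to expected CpG pairs was above 0.6 in 9 of 10 windows against 34.0% of all windows. The GC box (GGGCGG, read on both strands) was present in 9 of 10 windows against 32.7% of all, and the CCAAT box (CCAAT, both strands) in 6 of 10 against 33.8%. The 2 *Ago1* windows overlap, hold both motifs and were counted separately. The AP-1 site bound by Fos and Jun dimers (TGACTCA, both strands) was in none of the 10 windows and in 4.46% of all. The cAMP response element (TGACGTCA) was in none against 1.55% of all, the E-box (CACGTG) in none against 6.02%, the TATA box (TATAAA, both strands) in none against 12.4% and the ETS site (CCGGAAGT, both strands) in none against 2.88%. No base of these windows lay in more than 1 of these motifs. A match is a description of letters and not a binding site. The 4 windows printed here belong to genes on which the kidney and tissue comparisons turn, with CCAAT boxes and GC boxes in capitals, each written on the strand of its gene (RefSeq, GRCm38.p6).
Xpo5 (chr17:46202561-46202810, plus strand): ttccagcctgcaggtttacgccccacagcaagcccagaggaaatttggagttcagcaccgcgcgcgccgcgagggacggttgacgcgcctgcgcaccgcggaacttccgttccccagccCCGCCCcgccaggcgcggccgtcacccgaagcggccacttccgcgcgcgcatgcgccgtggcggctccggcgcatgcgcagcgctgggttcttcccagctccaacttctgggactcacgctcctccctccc
Tarbp2 (chr15:102517942-102518191, plus strand): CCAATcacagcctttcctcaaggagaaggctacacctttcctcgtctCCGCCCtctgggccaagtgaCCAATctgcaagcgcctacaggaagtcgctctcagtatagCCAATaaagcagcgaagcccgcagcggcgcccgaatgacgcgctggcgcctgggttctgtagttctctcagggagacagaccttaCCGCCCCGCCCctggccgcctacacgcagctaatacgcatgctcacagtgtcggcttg
Ago3 (chr4:126429543-126429792, minus strand): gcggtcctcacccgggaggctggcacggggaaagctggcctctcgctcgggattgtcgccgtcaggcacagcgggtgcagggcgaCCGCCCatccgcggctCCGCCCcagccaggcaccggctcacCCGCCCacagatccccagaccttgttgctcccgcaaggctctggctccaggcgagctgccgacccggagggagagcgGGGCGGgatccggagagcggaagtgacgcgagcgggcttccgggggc
Drosha (chr15:12824565-12824814, plus strand): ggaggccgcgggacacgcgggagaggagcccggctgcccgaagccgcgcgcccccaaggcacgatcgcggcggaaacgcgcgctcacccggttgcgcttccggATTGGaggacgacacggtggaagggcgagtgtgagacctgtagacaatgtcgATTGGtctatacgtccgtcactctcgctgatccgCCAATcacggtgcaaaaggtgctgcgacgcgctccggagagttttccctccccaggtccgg
The *Tarbp2* window held 3 CCAAT boxes and 3 GC boxes, and the *Drosha* window 3 CCAAT boxes and no GC box. The *Ago3* window held 4 GC boxes and the *Xpo5* window 1, neither with a CCAAT box.

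The levels of the members were far apart when taken per length. In CPM per kilobase of the coding transcript, *Tarbp2* led the NT kidneys at 11.1 ± 0.429 (SD, n = 4), followed by *Prkra* at 9.49 ± 1.41, *Drosha* at 9.26 ± 0.563, *Ago1* at 5.77 ± 0.534, *Dicer1* at 4.41 ± 0.443 and *Xpo5* at 4.01 ± 0.324. *Dgcr8* followed at 2.39 ± 0.141, *Ago4* at 1.16 ± 0.127, *Ago2* at 0.790 ± 0.0782 and *Ago3* at 0.130 ± 0.0194. The ranges of neighbours in this order overlapped only for *Prkra* with *Drosha* and *Dicer1* with *Xpo5*. In the NT livers *Prkra* came first at 10.9 ± 2.57 and overlapped with *Tarbp2* at 10.8 ± 0.632. *Dicer1* at 5.72 ± 0.834, *Ago1* at 5.50 ± 0.290, *Xpo5* at 4.21 ± 0.943 and *Drosha* at 3.88 ± 0.315 overlapped each with the next, and *Dgcr8* (2.55 ± 0.553), *Ago4* (1.42 ± 0.298), *Ago2* (0.714 ± 0.1201) and *Ago3* (0.162 ± 0.0595) followed without overlap. *Ago2* therefore stood second from last in both tissues per length of its 13800-base coding transcript, and *Ago1* made up 73.5% ± 2.35 of the Argonaute total in NT kidney and 70.6% ± 3.82 in NT liver (SD, n = 4). These levels depended on the length used for some genes: over the union of all annotated exons *Tarbp2* lay at 3.72 CPM per kilobase in the NT kidneys, *Dicer1* at 2.59 and *Dgcr8* at 1.34. On that length *Tarbp2* did not lead the NT kidneys and lay below *Prkra* (7.55), *Drosha* (7.13) and *Ago1* (5.13). In the NT livers it lay at 3.63, below *Prkra* (8.68) and *Ago1* (4.89).

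**Figure D1:**
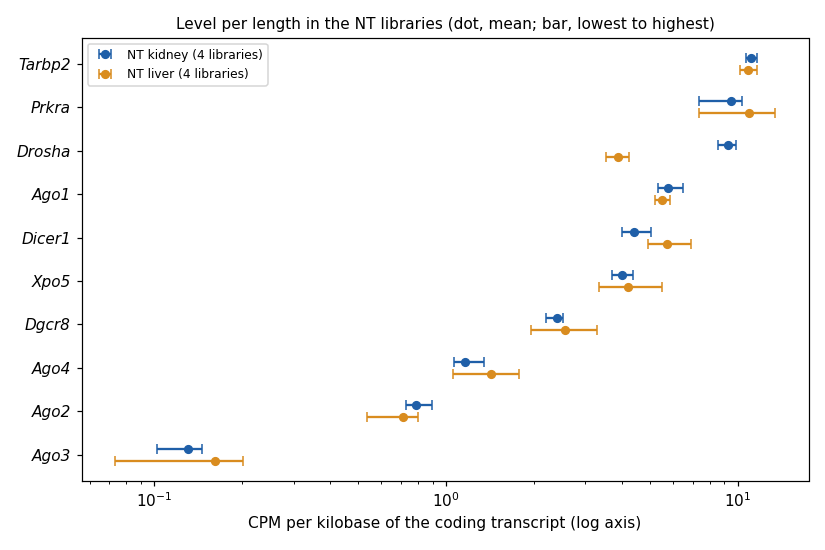
Level of each member in the NT libraries, in CPM per kilobase of the coding transcript on a log axis, with the mean of 4 libraries as a dot and the lowest to highest as a bar. *Tarbp2* and *Prkra* lie at the top and *Ago3* at the bottom in both tissues, and *Drosha* is the member whose kidney (9.26) and liver (3.88) means are farthest apart.

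The tissue comparison asked where the machinery differed between kidney and liver without the *Fos* hairpin. *Drosha*, the Microprocessor nuclease, was higher in kidney by 2.39-fold, and *Dicer1* was 0.772-fold as high. The test was edgeR's quasi-likelihood F test, with p-values adjusted by Benjamini and Hochberg's method over every gene tested, and it called these 2 of 10 members against 64.7% of the 15421 genes. DESeq2, an alternative count test, called the same 2 against 59.5% of genes, and at an unadjusted p under 0.05 there were 2 members against 67.7%. The kidney and liver libraries did not overlap for 1 of 10 members, *Drosha*, against 56.2% of genes. The median log2 difference of the members was -0.08 against 0.05 over all genes.

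*Drosha* (chr15:12824815-12935291, plus strand, mm10, 35 exons in its longest coding transcript) was read at 45.1, 39.1, 43.4 and 41.6 CPM in the NT kidneys and at 16.2, 18.3, 16.98 and 19.4 CPM in the NT livers. No liver library came near a kidney library. The shFos libraries gave 40.6, 41.7, 43.3 and 42.5 CPM in kidney and 16.03, 16.7, 14.97 and 16.6 CPM in liver, the same gap in separate libraries. The log2 difference, kidney minus liver, was 1.25 (SE 0.08, edgeR adjusted p = 1.84e-09) under NT and 1.39 (SE 0.08, adjusted p = 5.99e-10) under shFos. Across the alternatives run, the NT difference stayed between 1.03 and 2.30 and passed the test in 26 of 26.

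*Dicer1* (chr12:104687742-104751952, minus strand) was read at 43.4, 39.6, 41.3 and 49.6 CPM in the NT kidneys and at 55.2, 48.6, 53.6 and 67.9 CPM in the NT livers. The groups overlapped by 1 library, and the highest library of each tissue was NT replicate 4. Within same-numbered pairs, kidney was lower in 4 of 4. With the replicate number as a block over all 16 libraries, the log2 difference was -0.37 (edgeR adjusted p = 0.00287). That block also ties NT to shFos libraries of the same number, so it is not a pairing of the NT tissues alone. The log2 difference was -0.37 (SE 0.10, edgeR adjusted p = 0.00441) under NT and -0.22 (SE 0.10, adjusted p = 0.0689) under shFos, where the libraries did not overlap. The direction rested on the scaling: without TMM factors the NT difference was 0.67, against the median of 1.10 over all genes on that scale. With upper-quartile factors it was -0.22 and lost the call (adjusted p = 0.0629), and without liver NT replicate 4 it was -0.27 (adjusted p = 0.0149).

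The other 8 members did not pass the test under NT. Their log2 differences ran from -0.31 (*Ago3*, SE 0.31, edgeR adjusted p = 0.393) to 0.15 (*Ago2*, SE 0.23, adjusted p = 0.602). Between the shFos tissues 5 members passed, against 65.9% of all genes tested: *Drosha*, *Ago2* at 1.17 (SE 0.23, adjusted p = 0.000359) and *Xpo5* at 0.51 (SE 0.14, adjusted p = 0.00425) higher in kidney, and *Tarbp2* at -0.39 (SE 0.12, adjusted p = 0.00724) and *Ago4* at -0.55 (SE 0.19, adjusted p = 0.0201) lower. DESeq2 called 7 members against 60.1% of genes, 8 had an unadjusted p under 0.05 against 69%, and 4 (*Drosha*, *Xpo5*, *Dgcr8* and *Dicer1*) had tissues that did not overlap against 63.5%. Without scaling factors, where the median of all genes was 1.003, *Tarbp2* was at 0.56 and *Ago4* at 0.41, turned in sign. With upper-quartile factors *Ago4* lost its call (-0.43, adjusted p = 0.0663), and with the length correction *Xpo5* lost its call (0.24, adjusted p = 0.138). NT and shFos libraries were not shared between these 2 contrasts.

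**Figure D2:**
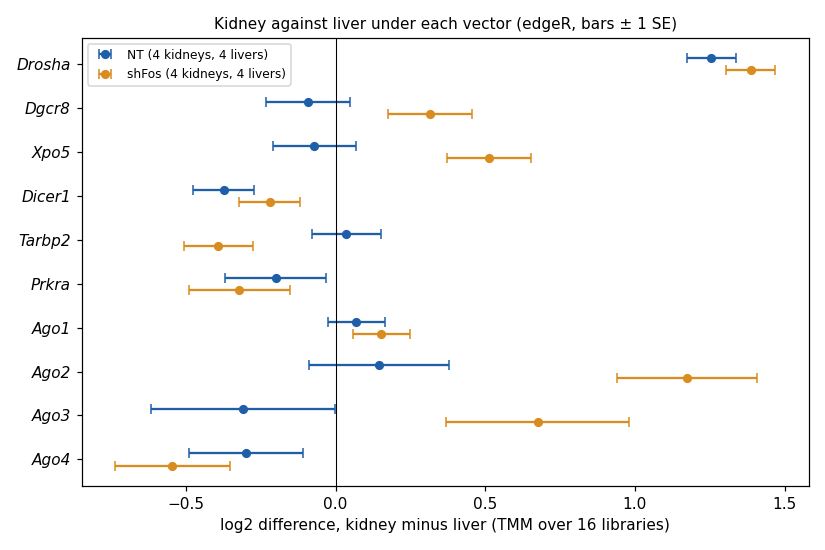
Log2 difference between kidney and liver for each member (horizontal axis), in the 4 NT kidneys against 4 NT livers and in the 4 shFos kidneys against 4 shFos livers, with bars of 1 SE from edgeR. *Drosha* lies far to the right under both vectors (1.25 and 1.39), while *Ago2* moves from 0.15 under NT to 1.17 under shFos.

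The main question was whether a mouse carrying the *Fos* hairpin differed in the machinery from a mouse carrying the non-targeting one. In the kidney *Ago2* was 2.03-fold higher under shFos, *Ago3* 1.86-fold and *Xpo5* 1.29-fold higher, and *Tarbp2* 0.761-fold and *Ago4* 0.808-fold as high. By edgeR 0 of 10 members passed an adjusted p of 0.05, as did 0 (0%) of 14892 genes tested. At an unadjusted p under 0.05 there were 5 members, 3 higher and 2 lower, against 31.9% of all genes. DESeq2, which the study used for its counts, called 4 members, *Ago2*, *Ago3*, *Xpo5* and *Tarbp2*, against 19.7% of the genes it tested. The members' median log2 fold change was 0.11 against 0.00 over all genes.

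*Ago2* (chr15:73095844-73184935, minus strand, mm10), the slicing Argonaute, was read at 12.3, 10.1, 11.1 and 10.04 CPM in the NT kidneys and at 12.1, 22.5, 29.8 and 23.5 CPM in the shFos kidneys. Replicate 1 of the shFos kidneys lay among the NT libraries and the other 3 lay far above them. The means were 10.9 ± 1.079 and 21.97 ± 7.32 CPM (SD, n = 4), and the log2 fold change was 1.02 (SE 0.25, unadjusted p = 0.00242 and adjusted p = 0.0660 in edgeR, adjusted p = 0.00322 in DESeq2). The exact two-sided permutation test over libraries gave p = 0.0571, where 0.0286 is the smallest p that 4 against 4 allows. Without shFos replicate 1 the log2 fold change was 1.19 (SE 0.13, edgeR adjusted p = 0.00122), in a fit that called 27.5% of all genes.

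*Ago3* (chr4:126331704-126429556, minus strand), a lowly expressed Argonaute that neighbours *Ago1* and *Ago4* on the same strand, gave 2.27, 1.596, 2.07 and 2.195 CPM in the NT kidneys and 2.31, 3.996, 5.34 and 3.38 CPM in the shFos kidneys. The groups just separated, with shFos replicate 1 again next to the NT libraries. The counts behind these values were small, 34 to 49 reads under NT and 50 to 108 under shFos. The log2 fold change was 0.89 (SE 0.28, edgeR adjusted p = 0.0787, exact permutation p = 0.0286).

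*Xpo5* (chr17:46202782-46243598, plus strand), the export receptor that short hairpins need, gave 19.1, 18.8, 22.2 and 21.3 CPM in the NT kidneys and 23.5, 29.02, 24.8 and 27.1 CPM in the shFos kidneys. All 4 shFos kidneys lay above all NT kidneys. The log2 fold change was 0.36 (SE 0.10, edgeR adjusted p = 0.0660, exact permutation p = 0.0286). *Polh*, a DNA polymerase whose annotated start lies 137 bases from that of *Xpo5* on the other strand, had 4.16 to 5.67 CPM under NT and 5.72 to 7.34 CPM under shFos, a log2 fold change of 0.37 (SE 0.16, edgeR adjusted p = 0.158). It was looked at for its position.

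*Tarbp2* (chr15:102518192-102523676, plus strand), a Dicer partner, gave 16.7, 16.2, 17.04 and 17.7 CPM in the NT kidneys and 16.2, 12.1, 11.03 and 11.9 CPM in the shFos kidneys. Here too shFos replicate 1 stayed at the NT level, and the other 3 lay below every NT library. The log2 fold change was -0.39 (SE 0.12, edgeR adjusted p = 0.0767, exact permutation p = 0.0571), and -0.56 (SE 0.09, adjusted p = 0.00375) without shFos replicate 1. Among members its exons had the highest GC content, 57.5%, and with a GC trend removed from each library its log2 fold change was -0.21 (adjusted p = 0.185).

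*Ago4* (chr4:126489541-126533472, minus strand) gave 8.81, 6.95, 7.28 and 7.29 CPM in the NT kidneys and 6.83, 6.33, 5.74 and 5.52 CPM in the shFos kidneys. The groups did not overlap, but the gap between them was narrow. Its log2 fold change was -0.31 (SE 0.13, edgeR adjusted p = 0.150, DESeq2 adjusted p = 0.144, exact permutation p = 0.0286). With *Ago3* and *Xpo5* it made 3 of 10 members whose kidney groups did not overlap, against 17.2% of all genes.

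The remaining members were close to the NT level in the shFos kidneys. *Dicer1* was 0.9997-fold (edgeR adjusted p = 0.998) and *Drosha* 0.998-fold (adjusted p = 0.981) as high, each with an SE of 0.08 on the log2 scale. *Dgcr8* (chr16:18253948-18289246, minus strand) gave 10.8, 9.48, 10.7 and 10.4 CPM under NT and 10.8, 11.99, 11.7 and 12.9 CPM under shFos, with a log2 fold change of 0.20 (SE 0.10, edgeR adjusted p = 0.216). *Ago1* (chr4:126435012-126468583, minus strand) differed by 0.11 (SE 0.08, adjusted p = 0.358) and *Prkra* (chr2:76629898-76648015, minus strand) by 0.11 (SE 0.13, adjusted p = 0.5999).

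**Figure D3:**
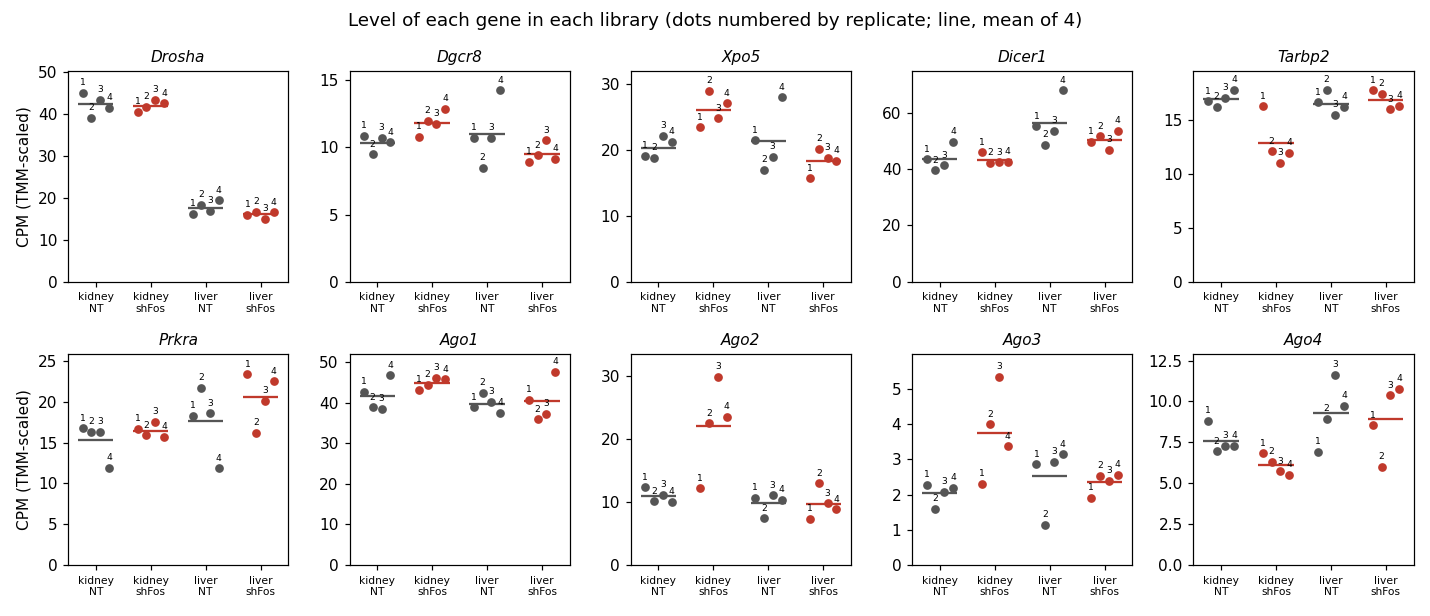
CPM of each member in each of the 16 libraries, with dots numbered by replicate and a line at the mean of 4, on axes that start at 0. In the shFos kidneys *Ago2* replicates 2, 3 and 4 lie at 22.5, 29.8 and 23.5 CPM and replicate 1 at 12.1 CPM among the NT libraries, while the liver groups overlap for every member.

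The Argonautes can also be read as shares of their summed level. *Ago2* made up 10.1% ± 1.07 of the Argonaute level per kilobase in the NT kidneys and 17.5% ± 4.70 in the shFos kidneys (SD, n = 4, exact permutation p = 0.0571), where single libraries ran from 10.9% to 22.1%. *Ago4* made up 14.8% ± 1.27 and 10.5% ± 1.82, with no overlap (exact permutation p = 0.0286, not adjusted and the smallest p possible). The *Ago3* share was 1.66% ± 0.18 and 2.64% ± 0.71, also with no overlap (exact permutation p = 0.0286). Shares are parts of the same total, so a rise in the *Ago2* share lowers the others. That total was 7.85 CPM per kilobase under NT and 8.98 under shFos (exact permutation p = 0.0857). *Ago1* remained the most abundant at 69.4% ± 3.69 in the shFos kidneys. In the liver the *Ago2* share was 9.17% ± 1.59 under NT and 9.20% ± 3.01 under shFos (SD, n = 4, exact permutation p = 1.0).

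The edgeR count depended on kidney shFos replicate 1. Leaving it out raised the count from 0 to 4 members (*Ago2*, *Ago3*, *Xpo5* and *Tarbp2*) against 27.5% of genes, while leaving out any other kidney library left 0. DESeq2 called the same 4 with that library kept. A fit of all 16 libraries, which shares 1 estimate of the spread, called *Ago2* and *Tarbp2* against 6.45% of genes. Without both kidney NT replicate 4 and shFos replicate 1 the count was 5 against 34.9% of genes, with *Ago4* added.

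**Figure D4:**
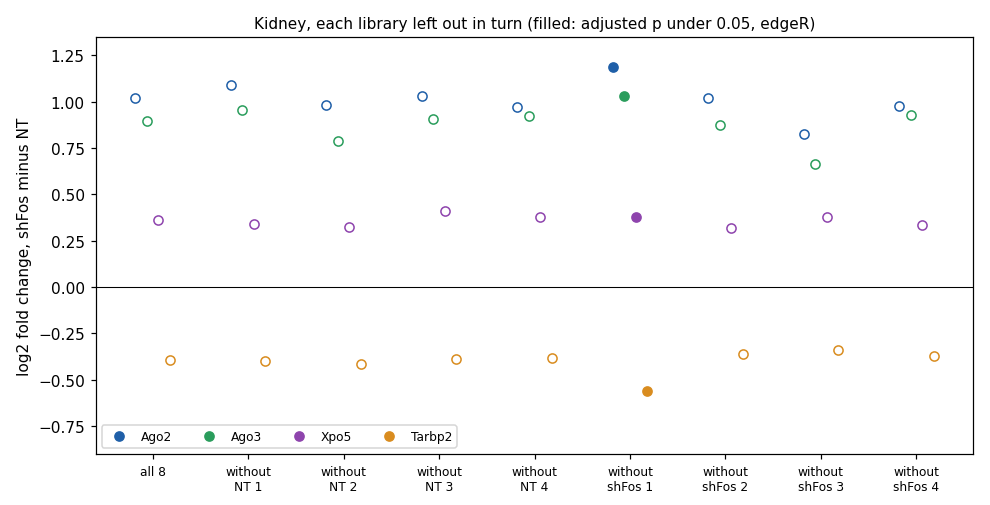
Log2 fold change in the kidney (vertical axis) of the 4 members that DESeq2 called, with all 8 libraries and with each library left out, where a filled dot has an edgeR adjusted p under 0.05. The fold changes keep their sign throughout, and dots are filled only without shFos replicate 1, where *Ago2* reaches 1.19 and *Tarbp2* -0.56.

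Some other features of the kidney libraries moved with the same 3 shFos replicates. The number of genes with at least 1 read was 17417 to 17598 in shFos replicates 2, 3 and 4, and 17997 to 18107 in shFos replicate 1 and the NT kidneys. The glucose transporter of the early proximal tubule, *Slc5a2*, was at 165 to 219 CPM in those 3 and at 20.6 to 110 CPM in the other 5 kidneys, and the distal tubule transporter *Slc12a3* at 703 to 740 CPM against 1045 to 1514 CPM. The proximal tubule markers *Slc34a1* and *Lrp2* also set those 3 apart, but *Slc22a6* and *Kap* did not. Nor did 2 other tubule markers. In shFos replicates 2, 3 and 4 *Umod* was at 4483, 2960 and 4340 CPM, against 3354 to 3496 CPM under NT. *Aqp2* was at 250, 69.5 and 105 CPM there, against 168 to 321 CPM under NT. The marker sums that follow did not single out those 3 replicates. By edgeR no marker passed an adjusted p of 0.05 in the kidney, and 31.9% of all genes had an unadjusted p under 0.05. Summed proximal tubule markers ran from 3415 to 10684 CPM under NT and from 6916 to 24490 CPM under shFos. Of these, 2 of 5 were higher at an unadjusted p under 0.05, against that 31.9%. *Kap*, the most abundant of them, ran from 1006 to 18248 CPM among the shFos kidneys. Summed endothelial markers ran from 102 to 143 CPM and from 153 to 189 CPM, with 2 of 3 higher against the same 31.9%. Macrophage markers ran from 66.4 to 160 CPM and from 98.8 to 131 CPM, with the Kupffer cell marker *Clec4f* at no more than 0.185 CPM, and lymphocyte markers, mostly *Jchain*, from 7.94 to 145 CPM and from 132 to 209 CPM. The median log2 fold change of the 4 lymphocyte markers was -0.85, opposite in sign to that sum, and the B cell gene *Ms4a1* ran from 0.934 to 25.5 CPM under NT and from 0.692 to 2.57 CPM under shFos. Hepatocyte markers ran from 122 to 715 CPM and from 167 to 280 CPM, with 2 of 5 lower at an unadjusted p under 0.05, against 31.9% of all genes. Neutrophil markers ran from 1.58 to 13.5 CPM and from 1.66 to 3.32 CPM, mesenchymal markers from 206 to 238 CPM and from 162 to 221 CPM, and markers of other tubule segments from 4609 to 5198 CPM and from 3770 to 5884 CPM. In whole tissue, fewer cells of a type and less RNA per cell cannot be told apart, and the part of these features in the member values was not tested. Genes with a coding transcript of at least 10000 bases, a class that includes *Ago2* and *Ago3*, had a median log2 fold change of 0.11 over 341 genes in the kidney, and with a length trend removed *Ago2* differed by 0.86 (SE 0.22, edgeR adjusted p = 0.0776).

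In the liver, the tissue that AAV8 reaches best, no member differed between vectors beyond the spread of the libraries. By edgeR 0 of 10 members and 0 (0%) of 13144 genes passed an adjusted p of 0.05, and DESeq2 called 0 members and 0.306% of genes. No member had an unadjusted p under 0.05, against 6.74% of all genes, and no member had groups apart, against 4.56%. The members' median log2 fold change was -0.09 against -0.01 over all genes.

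*Ago2* gave 10.6, 7.41, 11.1 and 10.3 CPM in the NT livers and 7.34, 12.97, 9.79 and 8.82 CPM in the shFos livers. The lowest and highest livers were both shFos libraries. Its log2 fold change was -0.03 (SE 0.21, edgeR adjusted p = 0.981). *Xpo5* gave 21.5, 17.01, 19.03 and 28.03 CPM under NT and 15.7, 20.2, 18.8 and 18.4 CPM under shFos, a log2 fold change of -0.24 (SE 0.17, adjusted p = 0.762). *Tarbp2* gave 16.6, 17.7, 15.4 and 16.2 CPM under NT and 17.7, 17.4, 15.96 and 16.3 CPM under shFos, a log2 fold change of 0.02 (SE 0.10, adjusted p = 0.977). Replicate 4 of the NT livers was the highest NT liver for *Xpo5*, *Dicer1*, *Drosha*, *Dgcr8* and *Ago3* and the lowest for *Prkra* and *Ago1*. It is the library with the low *Alb* and high *S100a8*. The part of that difference in these values was not tested. The log2 fold changes of the other members ran from -0.22 (*Dgcr8*, SE 0.18) to 0.21 (*Prkra*, SE 0.20), and the SE was largest for *Ago3* at 0.32 and smallest for *Tarbp2* at 0.10.

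**Figure D5:**
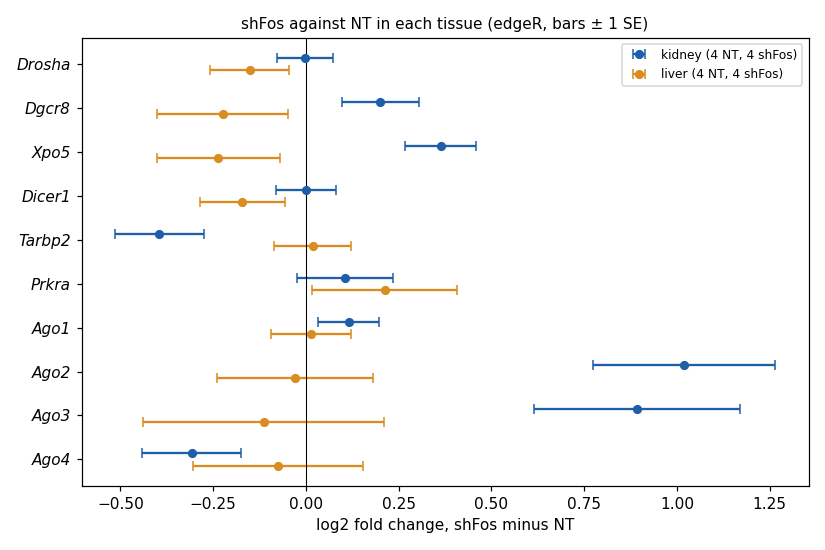
Log2 fold change of each member under shFos against NT (horizontal axis) in each tissue, with bars of 1 SE from edgeR fits of 8 libraries each. In the kidney *Ago2* (1.02) and *Ago3* (0.89) lie farthest to the right and *Tarbp2* (-0.39) farthest to the left, and the liver values lie between -0.24 and 0.21.

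The difference between the tissues' responses was tested as an interaction in a fit of all 16 libraries. By edgeR 0 of 10 members and 0 (0%) of 15421 genes passed an adjusted p of 0.05. At an unadjusted p under 0.05 there were 4 members against 16.1% of all genes: *Ago2*, with the liver effect lower than the kidney effect by 1.03 on the log2 scale (SE 0.33, adjusted p = 0.191), *Xpo5*, lower by 0.58 (SE 0.20, adjusted p = 0.199), *Ago3*, lower by 0.98 (SE 0.43, adjusted p = 0.279), and *Tarbp2*, higher by 0.43 (SE 0.16, adjusted p = 0.227). DESeq2 called 0 of the 9 members to which it gave an adjusted p, with 0.0694 for *Ago2* and 0.0708 for *Xpo5*, against 2.95% of genes, and gave none for *Ago3*. Without kidney shFos replicate 1, *Ago2* (adjusted p = 0.0106) and *Tarbp2* (adjusted p = 0.0194) passed, in a fit that called 7.99% of genes. A difference in response between kidney and liver was thus not resolved for any member with all libraries.

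The *Dgcr8* messenger RNA carries a microRNA hairpin of its own. *Mir1306* lies at chr16:18284239-18284317 on the minus strand, inside the coding sequence of *Dgcr8*, and its 2 mature arms (RefSeq, GRCm38.p6) are shown with the seed, bases 2 to 8, in capitals because Drosha and Dgcr8 must cut the transcript of *Dgcr8* to release them.
mmu-miR-1306-5p: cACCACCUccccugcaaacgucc
mmu-miR-1306-3p: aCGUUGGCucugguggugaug
The arms share no seed. *Mir1306* had 0 reads in all 16 libraries. Counting set aside reads that lay on more than 1 gene, 1.84% to 2.64% of reads per library, and a read on this hairpin also lies on *Dgcr8*. *Dgcr8* further shares 825 exon bases with *Trmt2a*, a transfer RNA methyltransferase gene on the other strand, and the counting did not use strand. *Trmt2a* was at 25.4, 25.7, 27.3 and 29.4 CPM in the NT kidneys and at 25.2, 16.8, 19.4 and 17.2 CPM in the shFos kidneys (log2 fold change -0.45, SE 0.13, edgeR adjusted p = 0.0703). *Ago2* shares 219 of its 14031 exon bases with *Chrac1* on the other strand, which had a kidney log2 fold change of -0.04 (SE 0.10).

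Genes that act beside the members were counted in lists. Of 8 partners of the Microprocessor and the cap, edgeR called 0 in the kidney, as it called 0% of all genes. At an unadjusted p under 0.05 there were 2 higher and 3 lower, 5 of 8 against 31.9% of all genes. With DESeq2, 1 higher and 3 lower were called, against 19.7% of genes. *Srrt*, which links the cap to the Microprocessor, was at 90.2 ± 3.21 CPM under NT and 61.3 ± 13.1 CPM under shFos (log2 fold change -0.55, SE 0.13, edgeR adjusted p = 0.0660). *Khsrp*, a hairpin-binding processing factor, had -0.35 (SE 0.11, adjusted p = 0.0760). In the liver the smallest p belonged to *Ncbp2* (0.22, SE 0.14) and *Srsf3* (-0.28, SE 0.18), neither called. Between NT tissues only *Khsrp* was called, 1 of 8 against 64.7% of all genes, lower in kidney by 0.38 on the log2 scale (adjusted p = 0.00465), and *Ncbp1* was at -0.22 (adjusted p = 0.106).

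Of 5 export partners, 2 had an unadjusted p under 0.05 in the kidney, both higher, against 31.9% of all genes. With DESeq2, 2 higher and 0 lower were called, against 19.7% of genes. *Xpot*, the transfer RNA exportin, was at 54.5 ± 2.71 CPM under NT and 66.3 ± 1.44 CPM under shFos (SD, n = 4), with all 4 shFos kidneys above the NT kidneys and a log2 fold change of 0.29 (SE 0.07, edgeR adjusted p = 0.0660). *Ran*, the GTPase that drives both exportins, had 0.33 (SE 0.10, adjusted p = 0.0781). In the liver *Xpo1* was at -0.25 (SE 0.17) and *Xpot* at -0.13 (SE 0.11). Between NT tissues 3 of 5 were called against 64.7% of all genes, all lower in kidney, among them *Xpot* at -0.91 and *Rangap1* at -0.86.

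The 7 chaperones that load Argonautes held 1 gene with an unadjusted p under 0.05 in the kidney, against 31.9% of all genes. It was *Hsp90aa1* (log2 fold change 0.52, SE 0.18, edgeR adjusted p = 0.0938), followed by *Fkbp4* (0.31, SE 0.16). With DESeq2, 1 higher and 0 lower were called in the kidney, against 19.7% of genes. In the liver *Fkbp4* had 0.37 (SE 0.40) and *Ahsa1* 0.10 (SE 0.14), and NT liver replicate 4 held *Fkbp4* at 84.1 CPM against 230 to 426 CPM in the other NT livers. Between NT tissues 4 of 7 were called against 64.7% of all genes, all lower in kidney, led by *Ahsa1* at -1.14 and *Ptges3* at -0.81 on the log2 scale.

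Among 18 silencing effectors, the proteins that Argonaute recruits, edgeR called 0 in the kidney, as it called 0% of all genes. At an unadjusted p under 0.05 there were 2 higher and 5 lower, 7 of 18 against 31.9% of all genes. With DESeq2, 2 higher and 4 lower were called, against 19.7% of genes. *Tnrc6a*, a scaffold that binds Argonaute, was at 97.4, 106, 93.0 and 150 CPM under NT and at 87.2, 57.2, 64.8 and 59.8 CPM under shFos (log2 fold change -0.72, SE 0.18, edgeR adjusted p = 0.0660). *Pan3*, of the deadenylase complex it recruits, had -0.68 (SE 0.18, adjusted p = 0.0663). All 4 shFos kidneys lay below the NT kidneys for both genes, where 17.2% of all genes had kidney groups that did not overlap in either direction. For *Pan3* the gap was slight, with shFos replicate 1 at 41.1 CPM and the lowest NT kidney at 41.2 CPM. *Pan3* lay at 22.4, 24.7 and 26.0 CPM in shFos replicates 2, 3 and 4. In the liver *Pan2* (0.24, SE 0.10) and *Tnrc6b* (0.18, SE 0.09) had the smallest p, with adjusted p = 0.733 and 0.735. Between NT tissues 8 of 18 were called against 64.7% of all genes, 2 higher and 6 lower in kidney, with *Mov10* at -1.37 and *Cnot8* at -0.73.

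Of 12 tailing and turnover genes, 9 passed the filter, and the other 3 had at most 5 reads in any library. In the kidney 2 of 9 had an unadjusted p under 0.05, against 31.9% of all genes. With DESeq2, 1 higher and 1 lower were called, against 19.7% of genes. *Tut7*, which adds uridines to small RNAs, was at 22.8, 22.4, 25.0 and 25.8 CPM under NT and at 27.7, 39.2, 45.4 and 39.4 CPM under shFos. All 4 shFos kidneys lay above the NT kidneys, with replicate 1 the lowest (log2 fold change 0.67, SE 0.15, edgeR adjusted p = 0.0660). *Zswim8*, a ubiquitin ligase adaptor in target-directed microRNA decay, had -0.51 (SE 0.17, adjusted p = 0.0864). In the liver *Parn* (-0.15, SE 0.15) and *Tsn* (0.09, SE 0.10) were not called. Between NT tissues 6 of 9 were called against 64.7% of all genes, all lower in kidney, led by *Snd1* at -1.52 and *Tut7* at -1.39.

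Of 7 genes for double-stranded RNA sensors and editors, 0 were called under shFos in either tissue by edgeR or DESeq2. Over all genes edgeR called 0% in each tissue, and DESeq2 called 19.7% in the kidney and 0.306% in the liver. In the kidney 2 of 7 had an unadjusted p under 0.05 against 31.9% of all genes, and in the liver 1 of 7 against 6.74%. In the kidney *Adar* had a log2 fold change of -0.33 (SE 0.11, edgeR adjusted p = 0.0868) and *Ifih1*, the MDA5 sensor, 0.54 (SE 0.22, adjusted p = 0.131). In the liver *Dhx58* had 0.65 (SE 0.29, adjusted p = 0.734) and *Ifih1* 0.21 (SE 0.20). Between NT tissues 3 of 7 were called against 64.7% of all genes, all lower in kidney, among them *Ifih1* at -1.62 and *Dhx58* at -1.56. The 3 *Piwi* family genes, whose proteins act mainly in the germ line, did not pass the filter, and the most reads any of them had in a library was 45.

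The genes whose pattern over the 16 libraries was nearest to that of *Ago2*, by the root mean square difference of centred log2 CPM among 11387 genes with a mean of at least 5 CPM, were *Usp34* (0.146), *Strn* (0.177) and *Pik3c2a* (0.181). *Usp34* went from a mean of 29.2 CPM in the NT kidneys to 56.7 CPM in the shFos kidneys and was at 29.5 and 28.1 CPM in the livers. For *Dicer1* the nearest were *Thrap3* (0.0794), *Nup88* (0.0893) and *Dctn2* (0.0896), each lower in kidney than in liver. *Thrap3* had means of 96.9 and 92.1 CPM in the kidneys and 119 and 104 CPM in the livers.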

How the data were processed

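Messenger RNA libraries of whole kidney and liver were analysed, 4 per tissue and vector. Per the labels and the study's methods, the authors trimmed reads with Trimmomatic 0.39, aligned them to mm10 with HISAT2 2.2.1 and counted them per gene symbol without strand with HTSeq 0.12.4. The deposited values are raw counts. The annotation release is not given in the sources used here. The 5 lines that name no gene were left out. They include reads on no feature, 22.1% to 26.7% of reads in kidney and 13.4% to 15.7% in liver, and ambiguous reads, 1.84% to 2.64%.

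Counts were tested with edgeR 4.0.16 in R 4.3.3 (filterByExpr, TMM factors, robust quasi-likelihood test, Benjamini-Hochberg adjustment over all genes, adjusted p under 0.05), within each tissue over 8 libraries and, for interaction and tissue contrasts, over 16. DESeq2 1.42.0 was an alternative, with others given at the end. Single members also had an exact two-sided permutation test of CPM over 70 assignments. The fits were tested on simulated data. Replicate libraries of a group differed beyond sampling noise (chi-square per degree of freedom at least 7.17). The mice were randomised to a vector, but nothing ties each library to 1 mouse, so p-values measure the spread between these libraries. Lengths and positions came from GENCODE M21, in which 98.2% of the symbols matched. The members, lists and named genes (all members and *Fos*, the 2 genes with the smallest p per list and contrast, and the 3 genes nearest to *Ago2* and to *Dicer1*) were chosen with earlier results of these data known.

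Labels number replicates 1 to 4 in each group without saying that numbers mark shared mice. Deviations from group means correlated above 0.1 in 4 of 4 same-numbered pairs of NT kidney and NT liver (0.138 to 0.353), and in 2 of 4 pairs of shFos kidney and liver, 1 of 4 of NT and shFos kidney and 0 of 4 of NT and shFos liver. Pairs with different numbers were not compared, so these correlations do not settle whether numbers mark shared mice. The main fit of the NT tissue contrast was unpaired. A block of replicate number over all 16 libraries changed none of its member calls.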

Additional observations from a re-analysis of the deposited data

Results flagged for a closer look

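Among 44 groups of 4 libraries (the members and *Fos* in each tissue and vector), 3 held a library far from the other 3, by the gap to its nearest neighbour divided by the range of the group. Chance gives about 1 in 20 such groups, or 2.2 of 44. *Ago3* lay at 1.14 CPM in liver NT replicate 2 and at 2.86 to 3.15 CPM in the other NT livers (gap over range 0.858). *Dicer1* lay at 45.9 CPM in kidney shFos replicate 1 and at 42.1 to 42.6 CPM in the other shFos kidneys (0.871). *Prkra* lay at 11.9 CPM in kidney NT replicate 4 and at 16.3 to 16.7 CPM in the other NT kidneys (0.908).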

How the results depend on the processing

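The count of members called in the kidney was 0 with edgeR, 4 with DESeq2, 2 in a fit of all 16 libraries and 5 without both kidney NT replicate 4 and shFos replicate 1, the last chosen after seeing the data. Leaving out single libraries gave 0 to 4, and kidney shFos replicate 1 alone gave the 4. In the liver the count stayed 0 throughout. The count whose response differed between tissues was 0 to 2 when single libraries were left out, with kidney shFos replicate 1 again giving the 2. Over the alternatives run, the adjusted p in the kidney ran from 0.000503 to 0.192 for *Ago2*, 0.00924 to 0.193 for *Ago3*, 0.0131 to 0.192 for *Xpo5* and 0.00259 to 0.202 for *Tarbp2*. The kidney log2 fold change of *Ago1* was -0.026 with a transcript length correction, and that of *Prkra* -0.040 without both libraries.

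The 2 members that differed between NT tissues became 10 without scaling factors, 4 with the length correction (both chosen after seeing the data), 5 in the shFos libraries and 2 to 3 with single libraries left out, *Prkra* being added without liver NT replicate 4. Without scaling factors, where the median of all genes was 1.10, *Ago3* and *Ago4* stood at 0.73, *Dicer1* at 0.67, *Dgcr8* at 0.95, *Xpo5* at 0.97 and *Prkra* at 0.85, all turned in sign. With upper-quartile factors (median 0.21) *Dgcr8* was at 0.066 and *Xpo5* at 0.088, and the call of *Dicer1* was lost (adjusted p = 0.0629) and *Ago1* gained (0.23, edgeR adjusted p = 0.0308). With a GC correction *Ago1* was at -0.11 and *Tarbp2* at -0.30, the latter called (adjusted p = 0.0128), and with the length correction *Ago1* and *Ago2* were at -0.18. In the shFos libraries *Ago3* was at 0.68, *Dgcr8* at 0.32, *Xpo5* at 0.51 and *Tarbp2* at -0.39. With single libraries left out *Dgcr8* ran from -0.20 to 0.055 and *Xpo5* from -0.17 to 0.086, positive without liver NT replicate 4. The cause of these shifts was not tested beyond what each setting alters.

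With the replicate number as a block the counts were 0 in the kidney, 0 in the liver, 0 for the difference in response and 2 between NT tissues, and no call changed. Members with few reads, *Ago3* above all, were the least precise.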
